A study of Mus musculus with 6 samples.

Results

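Expression of 35 genes of the endoplasmic reticulum (ER), its folding chaperones and the signalling that controls them, was compared between control brains and brains of Atg7 conditional knockout (cKO) mice. The genes were chosen by function, after lower signals of Hspa5 and Hsp90b1 had been seen in these same arrays. Each was read from the transcript cluster, a set of probes covering a transcribed stretch, that the array annotation pairs with that symbol alone, and the cluster with the highest mean signal was taken where a gene had several. Of the 35 genes, 33 had such a cluster, among 19700 genes measured in this way. They were described by role, as 17 folding factors, 4 translocon genes, 5 sensors and transcription factors, and 7 degradation factors. The only clusters of Dnajc3 and Mbtps2 list another symbol as well, and these 2 genes have no value here.

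The data are log2 signals of 6 Affymetrix mouse exon arrays, 3 labelled NexCre:Atg7+/+ (control) and 3 labelled NexCre:Atg7f/f (cKO), all from C57BL/6 mice at postnatal day 16. Atg7 encodes an enzyme that autophagy needs to build autophagosomes, and Cre recombinase removes its floxed alleles in the cKO mice, while the controls carry Cre with wild-type alleles. The labels name NexCre, a driver of maturing forebrain excitatory neurons, with brain as the tissue, whereas the study's methods name Nestin-Cre, a driver of neural precursors, with cerebral cortex as the tissue. Nothing in these sources says whether the 3 arrays of a group came from 3 separate animals, so the spread between arrays may be technical in part.

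Atg7 itself was lower in every cKO array, by 0.48 on the log2 scale (standard error 0.092), in a cluster that also lists Camsap1. The 9 measured markers of excitatory cortical neurons, such as Slc17a7 and Neurod6, were all above the median signal of the array. Correlations between arrays lay between 0.980 and 0.990. The first principal component (36.0% of the variance) set control replicate 1 and cKO replicate 1 apart. Xist, an RNA of the inactive X chromosome of female cells, had a signal of 9.51 in cKO replicate 1. The other 5 arrays ranged from 3.48 to 4.15. By this signal cKO replicate 1 held female RNA, unlike the other 5 arrays, so sex is not balanced between the groups. No gene passed an adjusted p of 0.05 in limma (0% of 19700). At an unadjusted p under 0.05, 368 genes were lower in the cKO arrays and 412 were higher. Since the listed genes were chosen with some of these differences in view, their values are descriptions, with standard errors and without a test.

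Proteins that enter the secretory pathway pass through the translocon into the lumen of the ER, where chaperones and disulfide isomerases fold them. When unfolded proteins build up, the transmembrane sensors ATF6, IRE1 (encoded by Ern1) and PERK (encoded by Eif2ak3) start the unfolded protein response, which raises chaperone and degradation genes and slows translation. ATF6 and the spliced form of XBP1 act on chaperone genes together with the CCAAT-binding factor NF-Y, through a promoter element called the ER stress response element (ERSE). Proteins that fail to fold are passed back to the cytosol and degraded.

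The promoters of Hspa5 and Hsp90b1, the genes with the lowest differences of the group, are shown because both hold this element. The 220 bases before each start site were taken from RefSeq on GRCm38.p6, the Hspa5 stretch at chr2:34771870-34772089 on the plus strand and the Hsp90b1 stretch at chr10:86705445-86705664 on the minus strand. Capitals mark each ERSE, which was searched as CCAAT, any 9 bases, and then CCACG on either strand. On the opposite strand the same element reads CGTGG, 9 bases, ATTGG.
Hspa5: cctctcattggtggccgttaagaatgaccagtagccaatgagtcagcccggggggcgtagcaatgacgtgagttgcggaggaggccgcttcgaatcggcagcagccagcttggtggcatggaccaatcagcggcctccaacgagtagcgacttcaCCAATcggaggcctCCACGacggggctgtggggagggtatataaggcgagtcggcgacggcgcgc
Hsp90b1: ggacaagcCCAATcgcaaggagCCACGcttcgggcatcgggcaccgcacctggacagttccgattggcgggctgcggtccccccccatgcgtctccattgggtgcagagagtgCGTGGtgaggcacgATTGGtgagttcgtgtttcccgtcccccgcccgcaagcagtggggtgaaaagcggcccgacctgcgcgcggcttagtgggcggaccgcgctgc
Only exact matches of the fixed words were taken, so elements with a changed base are not marked. The Hspa5 promoter has 1 such exact element, from 65 to 47 bases before the start. The Hsp90b1 promoter has 2, from 212 to 194 bases before the start on the gene's strand and from 107 to 89 bases before it on the opposite strand. Each stretch holds CCAAT 4 times when both strands are read.

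Hspa5 encodes BiP, the HSP70 chaperone of the ER lumen, which also holds the sensors inactive. The control arrays had log2 signals of 8.31, 8.51 and 8.45, and the cKO arrays had 7.63, 7.72 and 7.55, with values given here and for the other genes in the order of replicates 1, 2 and 3. All 3 cKO arrays lay below all 3 control arrays, and the gap of 0.59 between the groups was wider than the range within either (0.20 in the controls, 0.17 in the cKO arrays). The difference was -0.79 (standard error 0.088), which corresponds to a 1.73-fold brighter signal in the controls. It was number 33 from the lowest of 19700 differences. These are whole-tissue samples, in which fewer cells of a type and less RNA per cell cannot be told apart.

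Hsp90b1 encodes GRP94, the HSP90 chaperone of the ER, which completes the folding of a restricted set of membrane and secreted proteins. Its log2 signal was 6.73, 7.08 and 7.19 in the control arrays and 5.82, 6.40 and 6.43 in the cKO arrays. The groups did not overlap, but replicate 1 was the lowest array of each group and cKO replicate 1 lay well below the others. The difference of -0.78 (standard error 0.20, 1.72-fold brighter in the controls) was nearly that of Hspa5 with a larger error, and it became -0.58 when cKO replicate 1 was left out and -0.92 when control replicate 1 was. Calr encodes calreticulin, the soluble lectin chaperone that binds glycoproteins and stores calcium. Its signal was 7.48, 7.41 and 7.41 in the control arrays and 7.11, 6.80 and 6.71 in the cKO arrays. The controls were tightly grouped, all cKO arrays were lower, and the difference was -0.56 (standard error 0.11).

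The protein disulfide isomerases, which form and rearrange disulfide bonds, were mostly lower too. Pdia4 (ERp72) was at 7.47, 7.67 and 7.47 in the control arrays and at 7.22, 7.16 and 6.98 in the cKO arrays, a difference of -0.42 (standard error 0.099). Pdia3 (ERp57), the partner of calreticulin and calnexin, was at 8.60, 8.88 and 8.78 against 8.37, 8.42 and 8.28, a difference of -0.40 (standard error 0.096). In both genes cKO replicate 3 was the lowest array and the groups did not overlap. Pdia6, which also acts on the sensors, was at 6.95, 6.83 and 6.84 against 6.63, 6.46 and 6.56, a difference of -0.32 (standard error 0.081) without overlap. A second, dimmer cluster of Pdia6 went the other way, by 0.20 (standard error 0.11), so the 2 clusters of this gene disagree. P4hb, the classical disulfide isomerase, was at 7.15, 7.16 and 7.13 in the control arrays and at 7.29, 6.99 and 6.96 in the cKO arrays. Its cKO arrays lay on both sides of the controls, with a difference of -0.07 (standard error 0.10).

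A further 3 folding factors, Manf, Fkbp2 and Sdf2l1, had groups that did not overlap. Manf, a secreted stress-induced protein that binds BiP, was at 5.44, 5.54 and 5.38 in the control arrays and at 5.13, 5.19 and 5.10 in the cKO arrays, a difference of -0.31 (standard error 0.076). Fkbp2, an ER prolyl isomerase, was at 7.16, 6.96 and 6.91 against 6.73, 6.79 and 6.68, a difference of -0.28 (standard error 0.090). Sdf2l1, a component of BiP complexes, was at 7.08, 7.11 and 7.05 against 6.91, 6.97 and 6.89. Its difference of -0.16 (standard error 0.069) was small, and the cKO arrays were separated from the controls by 0.088.

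The remaining 8 folding genes had overlapping groups. Hyou1 (GRP170), an exchange factor of BiP, was at 7.33, 7.14 and 7.06 in the control arrays and at 7.12, 6.88 and 6.67 in the cKO arrays, a difference of -0.28 (standard error 0.13). Only cKO replicate 1 reached into the control range, and the difference was -0.40 without that array and -0.17 without cKO replicate 3. Sil1, the other exchange factor of BiP, differed by -0.20 (standard error 0.093). Canx, the membrane-bound lectin chaperone calnexin, was at 8.990, 9.166 and 9.132 against 8.995, 8.941 and 8.841, a difference of -0.17 (standard error 0.085) with cKO replicate 1 just above control replicate 1. Creld2, a stress-induced protein of the ER, was at 6.22, 6.01 and 5.87 against 6.17, 5.86 and 5.59. Its cKO replicate 3 lay below the control range, cKO replicate 2 just below it, and cKO replicate 1 within it. Its difference of -0.16 (standard error 0.16) was -0.31 without cKO replicate 1 and -0.02 without cKO replicate 3. The J-domain cochaperones of BiP differed by -0.15 for Dnajc10, -0.10 for Dnajb11 and 0.01 for Dnajb9. Their standard errors were between 0.093 and 0.11. Second clusters of Dnajb11 and Dnajb9, both dimmer, differed by 0.49 (standard error 0.38) and -0.19 (standard error 0.22).

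**Figure D1:**
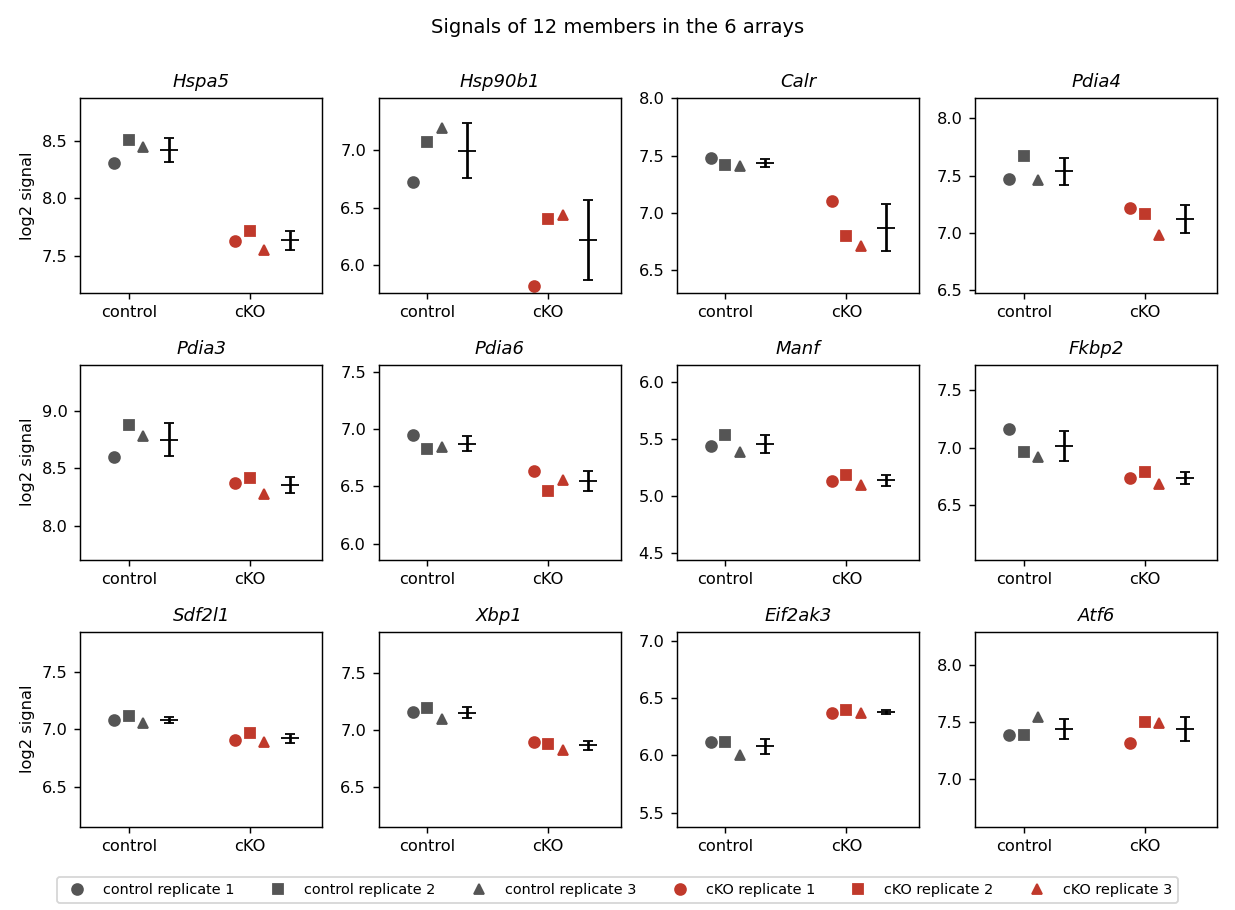
Log2 signals of 12 of the genes in the 3 control and 3 cKO arrays, with a panel for each gene, with the mean and SD of each group beside the points. The panels include all 9 folding genes without overlap and none of the folding genes with overlapping groups. The cKO points lie below all control points in the panels of Hspa5 to Xbp1 and above them in that of Eif2ak3, while Atf6 overlaps.

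Across the folding genes as a whole, 16 of 17 had a lower mean in the cKO arrays, with a median difference of -0.28 (-0.17 without cKO replicate 3). For 9 of 17 every cKO array lay below every control array, against 4.24% of all genes, and for 0 of 17 every cKO array lay above, against 4.15% of all genes. Over all 19700 genes, 52.5% had a lower mean and the median difference was -0.01. Hspa5 and Hsp90b1 were known to be lower when the list was drawn up, and among the 15 other folding genes 14 were lower, with a median of -0.20. These 15 were also listed with earlier results of these arrays known, so they are not an independent set. The median of the folding list, taken in each array relative to the control means, was -0.01, 0.03 and -0.02 in the control arrays and -0.24, -0.23 and -0.33 in the cKO arrays. All 3 cKO arrays thus lay apart from the controls by more than the spread within either group. Without cKO replicate 1, 15 of 17 folding genes did not overlap and were lower, as were 17.7% of all genes.

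**Figure D2:**
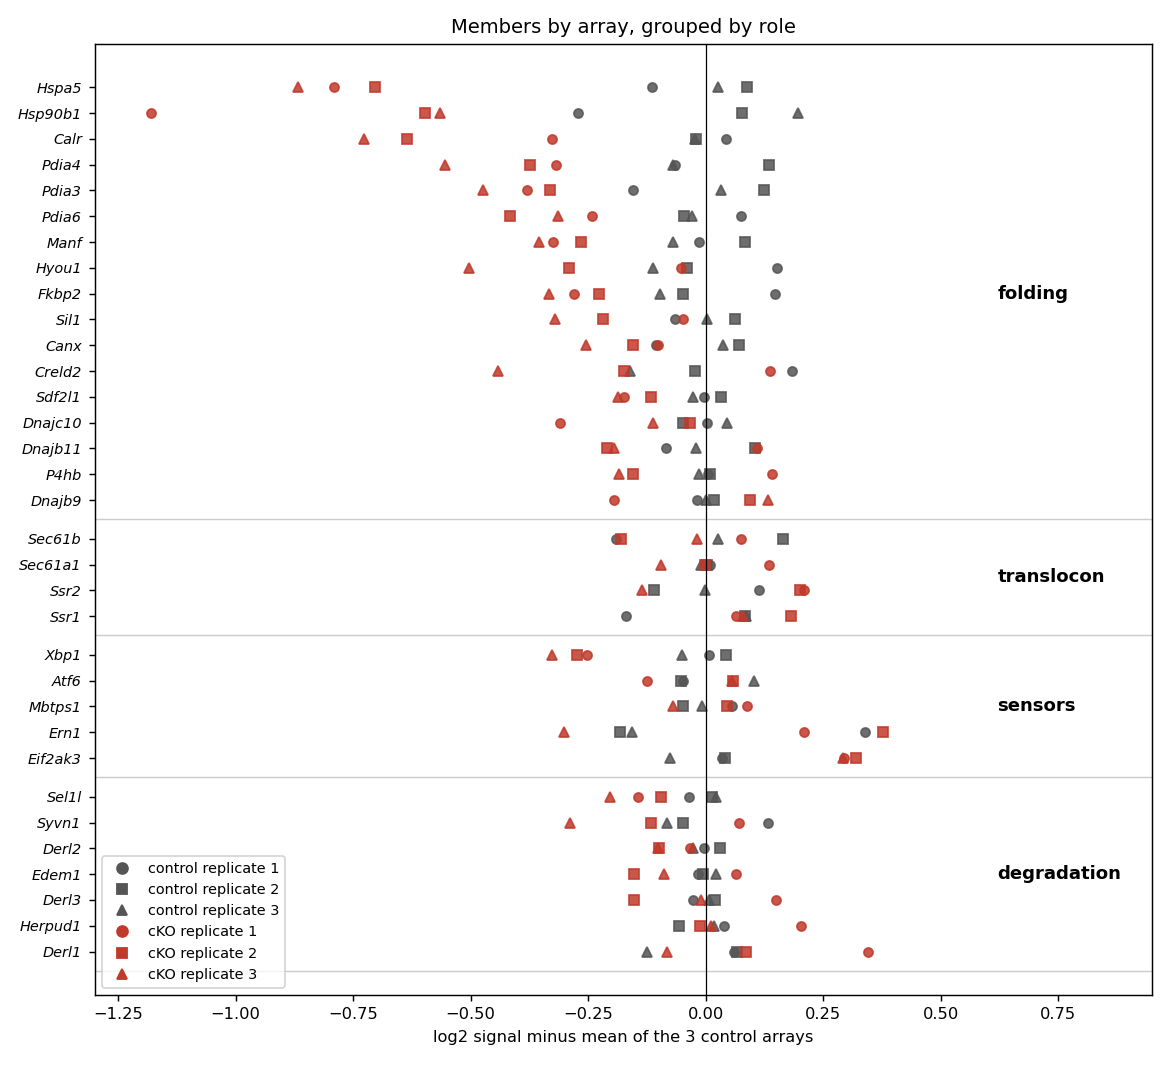
Log2 signal of each of the 33 genes in each array minus the mean of the 3 control arrays, with the genes grouped by role, grey for control and red for cKO. The red points of the upper folding genes lie to the left of the grey ones, whereas the points of most translocon, sensor and degradation genes mix around 0.

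cKO replicate 3 was the lowest array of its group for 12 of 17 folding genes, and for 22 of all 33. Control replicate 2 was the highest of its group for 10 of 17 folding genes, and cKO replicate 1 was the highest of its group for 9 of 17. Choroid plexus markers, from a secretory epithelium, were also highest in control replicate 2 and cKO replicate 1, with list medians of 0.40 and 0.45 there and between -0.27 and -0.12 in the other 4 arrays. Between groups that list had 3 of 7 markers lower and a median difference of 0.04, with summed linear signals of 219 to 1053 in the control arrays and 228 to 1242 in the cKO arrays. Markers of striatal neurons (5 of 6 lower, median difference -0.57, summed signals of 1128 to 2556 and 650 to 1505) and of oligodendrocytes (9 of 9 lower, median -0.26, summed signals of 2851 to 3506 and 2258 to 3173) differed in the direction of the folding genes. Both were lowest in cKO replicate 2, at -1.23 and -0.51. The folding median was -0.23 in that array, -0.24 in cKO replicate 1 and -0.33 in cKO replicate 3. Excitatory neuron markers had a median difference of -0.01 with 5 of 9 lower (summed signals of 5223 to 5828 and 4653 to 5543), but 2 of the 9, Neurod6 (-0.44, standard error 0.15) and Bcl11b (-0.30, standard error 0.096), were lower without overlap, and 8 of 9 lay below the control mean in cKO replicate 1. Interneuron markers had 5 of 7 lower with a median of -0.10, astrocyte markers 0 of 6 lower with a median of 0.10, and the 1 measured blood marker, Alas2, differed by 0.45 (standard error 0.17). The part of tissue composition in the folding differences was not tested.

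**Figure D3:**
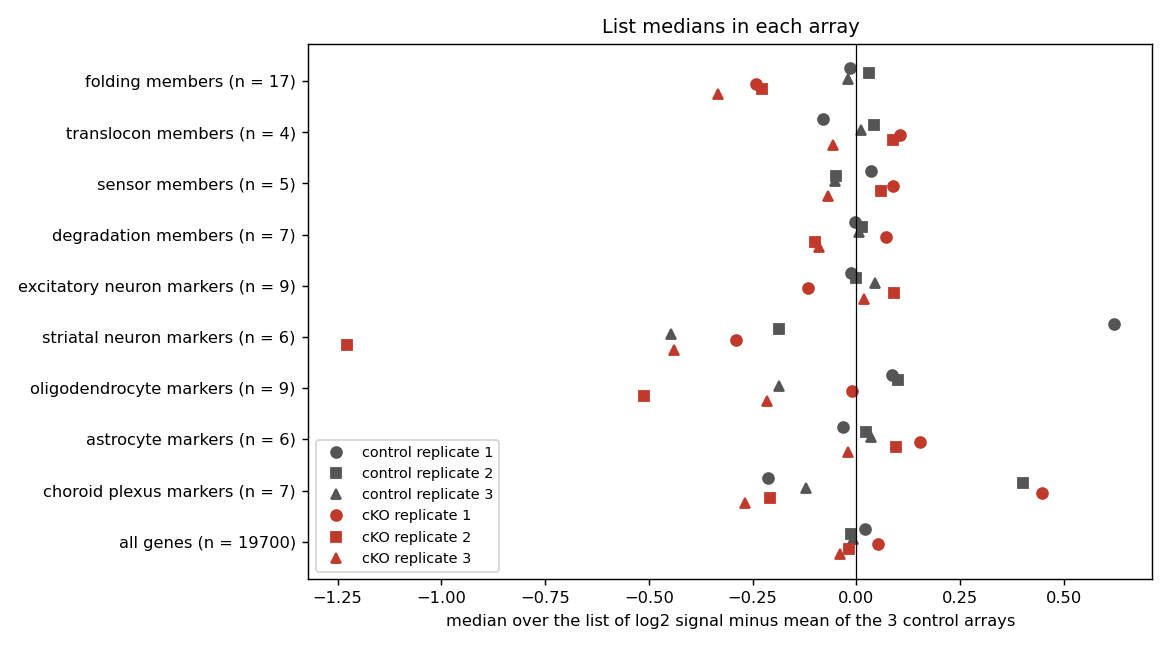
Median over each gene list of the log2 signal minus the control mean, for the 6 arrays. The folding list separates the 3 cKO arrays (-0.33 to -0.23) from the 3 control arrays (-0.02 to 0.03), while the striatal, oligodendrocyte and choroid plexus lists overlap between groups.

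ERSE sequences were searched in RefSeq promoters from 250 bases before to 50 bases after each start site, and 28 of the 35 listed genes had a promoter in that table. A complete ERSE was present in 39 of 32851 promoters (0.119%) and in 9 of the 28 matched genes (32.1%), of which 7 were among 15 folding genes and 2 among the 13 of other roles. The element was first described in promoters of ER chaperones, so its presence here is background. The matches are listed to show how far they agree outside the fixed words, which are in capitals, and all are written in the direction that begins with CCAAT.
Hspa5: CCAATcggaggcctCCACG
Hsp90b1, first: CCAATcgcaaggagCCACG
Hsp90b1, second: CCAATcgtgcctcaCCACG
Calr: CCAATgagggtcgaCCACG
Canx: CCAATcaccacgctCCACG
Pdia6: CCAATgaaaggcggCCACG
Dnajc3: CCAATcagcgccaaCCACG
Creld2: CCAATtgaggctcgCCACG
Derl3: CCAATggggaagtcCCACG
Syvn1: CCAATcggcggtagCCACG
On GRCm38.p6 they lie at chr2:34772025-34772043, chr10:86705638-86705656, chr10:86705533-86705551, chr8:84847075-84847093, chr11:50325800-50325818, chr12:17266491-17266509, chr14:118937827-118937845, chr15:88819520-88819538, chr10:75893242-75893260 and chr19:6046532-6046550, in the same order. Each starts between 212 and 44 bases before the start site, and the second Hsp90b1 match and those of Calr, Creld2 and Derl3 run against the gene. The 9 bases between the fixed words differ in every match. A shorter form, ERSE-II (ATTGG, any base, then CCACG), was found in 12 promoters (0.0365%), among them Herpud1 (ATTGGgCCACG, chr8:94386377-94386387, 52 bases before the start) and Dnajb11 (ATTGGcCCACG, chr16:22857852-22857862, 7 bases after it). The element with the letters TGACG followed directly by TGG, bound by ATF6 and XBP1, was in 0 of 28 matched genes and in 0.676% of all promoters, on either strand.

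Of the 9 listed genes with an ERSE, 8 had a signal and all 8 had a lower mean in the cKO arrays, with a median difference of -0.25. The range ran from -0.79 for Hspa5 to -0.00 for Derl3, and 4 of the 8 (Hspa5, Hsp90b1, Calr and Pdia6) were lower without overlap, against 4.24% of all genes. Hspa5 and Hsp90b1 count among these 4 and were known to be lower when the genes were chosen. Among folding genes alone, the 6 with an ERSE had a median of -0.44. The 8 matched genes without one had a median of -0.16, and 4 did not overlap in each set. Hspa5 and Hsp90b1, chosen with their low values known, are both among the 6 and lower that median. The other 4 of the 6 differed by -0.56 (Calr), -0.32 (Pdia6), -0.17 (Canx) and -0.16 (Creld2). A link between the element and the differences was not tested. Pdia4, Pdia3, Manf, Fkbp2 and Sdf2l1 are the folding genes without overlap that have no complete ERSE in this window or no promoter in the table. The ERSE-II genes Herpud1 and Dnajb11 differed by 0.07 and -0.10. Of 28 other genes in the genome with an ERSE in this window, 15 were measured, 8 of them with a lower mean and a median of -0.01. At an unadjusted p under 0.05 from limma, 2 of the 15 were lower and 0 were higher, against 1.87% and 2.09% of all genes. The ER oxidase gene Ero1b (-0.27) is 1 of these 2.

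**Figure D4:**
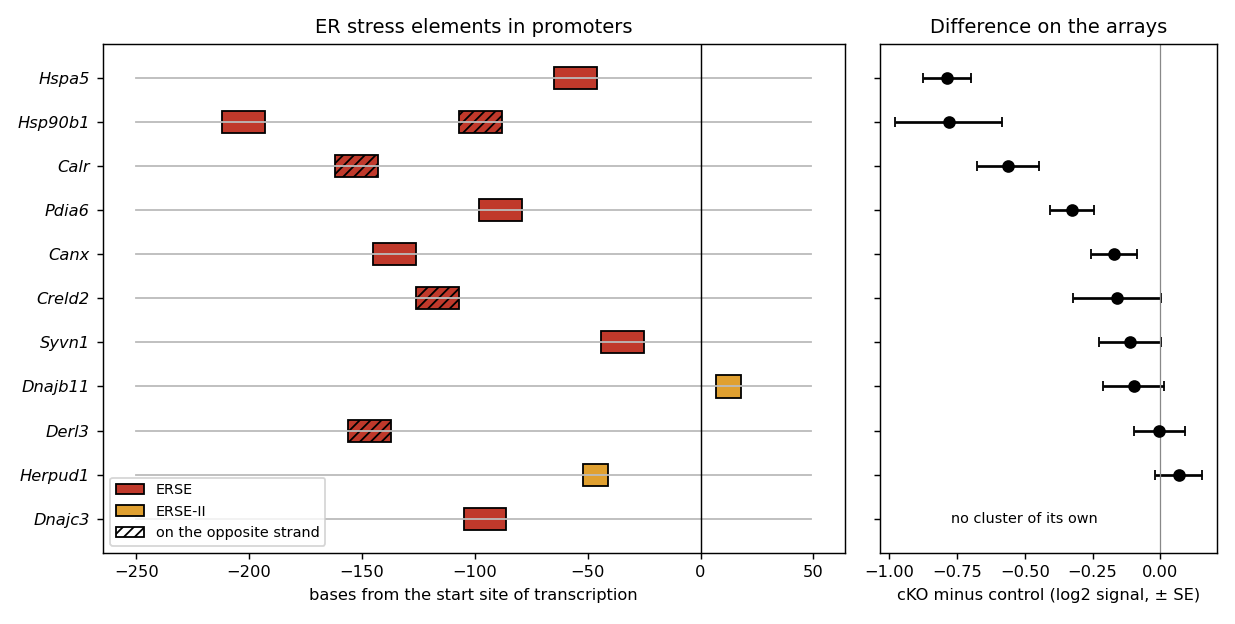
Left, position of each ERSE and ERSE-II match in bases from the start site of transcription, hatched where it lies on the opposite strand. Right, the cKO minus control difference of the same genes in log2 signal with its standard error, lowest for Hspa5 and Hsp90b1 and around 0 for Derl3 and Herpud1.

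Translocon genes lay close to 0. Sec61a1, the pore-forming subunit, was at 7.63, 7.63 and 7.62 in the control arrays and at 7.76, 7.62 and 7.53 in the cKO arrays, a difference of 0.01 (standard error 0.083). The cKO arrays lay on both sides of the controls. The pore subunit Sec61b differed by -0.04 (standard error 0.12), and the subunits of the translocon-associated protein complex Ssr1 and Ssr2 by 0.11 (standard error 0.096) and 0.09 (standard error 0.12). Of these 4 genes 3 had a higher mean, 0 had groups without overlap, and the median was 0.05. Against the folding list no test was made, since both lists were chosen with results of these arrays known.

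The sensors and transcription factors of the response went in both directions. Eif2ak3, the kinase PERK that slows translation, was at 6.11, 6.12 and 6.00 in the control arrays and at 6.37, 6.40 and 6.37 in the cKO arrays. All cKO arrays were higher and had an SD of 0.015, and the difference of 0.30 (standard error 0.072) was the highest of the 33 genes. Xbp1, whose mRNA is spliced by IRE1 to give the active transcription factor, was at 7.16, 7.19 and 7.10 against 6.90, 6.88 and 6.82. It was lower in every cKO array, with a difference of -0.28 (standard error 0.071), and the cluster signal does not separate the spliced from the unspliced mRNA. Without any single array the difference of Eif2ak3 stayed between 0.26 and 0.32 and that of Xbp1 between -0.31 and -0.26.

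Atf6, the sensor that is cleaved to a transcription factor, was at 7.39, 7.38 and 7.54 in the control arrays and at 7.31, 7.50 and 7.49 in the cKO arrays, with full overlap and a difference of -0.00 (standard error 0.089). Mbtps1, the protease that cleaves ATF6 first, differed by 0.02 (standard error 0.078). Ern1 (IRE1) was at 6.53, 6.01 and 6.03 against 6.40, 6.57 and 5.89, with arrays of both groups at the low and the high end. Its difference of 0.09 (standard error 0.21) had a large error, and a second cluster differed by 0.05 (standard error 0.086). The median of the 5 genes was 0.02. These signals are mRNA levels and do not measure cleavage, splicing or phosphorylation.

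Among the degradation factors, Sel1l, the scaffold of the ubiquitin ligase complex in the ER membrane, was at 7.91, 7.96 and 7.96 in the control arrays and at 7.80, 7.85 and 7.74 in the cKO arrays. The groups did not overlap, with a difference of -0.15 (standard error 0.071). Derl2, a subunit of the retrotranslocation channel, was separated by 0.0057 between groups, with a difference of -0.08 (standard error 0.069), and its second cluster differed by 0.35 (standard error 0.38). Syvn1, the ligase HRD1 itself, differed by -0.11 (standard error 0.11), and Edem1, which extracts glycoproteins from the folding cycle, by -0.06 (standard error 0.082). The related channel genes Derl1 and Derl3 differed by 0.12 (standard error 0.12) and -0.00 (standard error 0.094), and the membrane adaptor Herpud1, a strong target of the stress response, by 0.07 (standard error 0.086). The 7 genes had a median of -0.06, with 5 lower, 2 of them without overlap, beside 52.5% lower and 4.24% lower without overlap over all genes. For all 16 genes outside the folding list, 8 were lower and 8 higher, with a median of 0.00.

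The other ER genes, 126 genes listed by function, were near the background. These lists too were drawn up with earlier results of these data known, so their contrast with the folding genes is a description. Of 116 measured, 64 were lower and 52 higher, with a median difference of -0.01. At an unadjusted p under 0.05 from limma, 3 were lower, against 1.87% of all genes, and 0 were higher, against 2.09% of all genes. Cdnf, the paralog of Manf, was at 4.923, 4.996 and 5.004 in the control arrays and at 4.420, 4.770 and 4.782 in the cKO arrays, a difference of -0.32 (standard error 0.11) with no overlap. Nfya, the NF-Y subunit that contacts CCAAT, was at 6.76, 6.58 and 6.62 against 6.39, 6.41 and 6.47, a difference of -0.23 (standard error 0.079) with no overlap. The third was Ero1b, an oxidase that recharges disulfide isomerases, which differed by -0.27 (standard error 0.11) with overlapping groups. The count of these genes rested on single arrays, being 11 when cKO replicate 1 was left out, 5 when cKO replicate 3 was, and 1 when control replicate 1 was.

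By function, 24 of 41 other folding genes were lower (median -0.03), as were 17 of 30 genes of translocation and glycosylation (median -0.02), 8 of 18 of signalling (median 0.01) and 15 of 27 of degradation (median -0.01). Downstream of PERK, the transcription factor genes Atf4 and Ddit3 (CHOP) differed by -0.02 and 0.02, the phosphatase subunit gene Ppp1r15a (GADD34) by 0.13 and Trib3 by 0.05, all with overlapping groups. Cytosolic and mitochondrial heat shock chaperones had 9 of 13 lower with a median of -0.06. Relative to the control means, the median of that list was 0.031, 0.003 and -0.029 in the control arrays. In the cKO arrays it was -0.081, -0.075 and -0.079. This list thus also set all cKO arrays below all control arrays, as the folding list did, by a smaller amount.

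**Figure D5:**
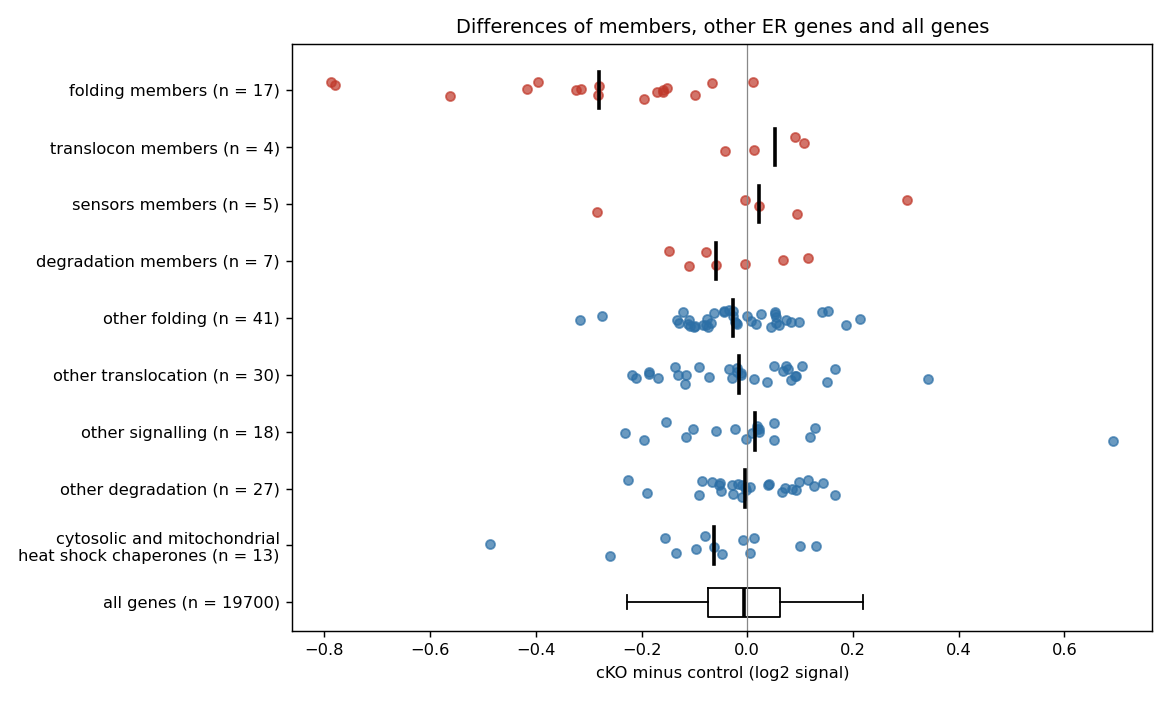
The cKO minus control difference in log2 signal of each gene, by list, with black bars for the list medians. The box for all 19700 genes shows the quartiles, and its whiskers the 5th and 95th percentiles. The folding genes have a median of -0.28, against -0.03 for the 41 other folding genes and -0.01 for all genes.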

How the data were processed

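Total RNA of brain tissue, or of cerebral cortex by the methods, was hybridised to 6 Affymetrix mouse exon arrays. The deposited values are log2 signals of transcript clusters, which the authors had summarised and normalized across arrays with GeneSpring (version 12.6, from the submitters' processing notes and the study's methods). The summarisation and the build, not given in the sources used here, remain unknown. The authors' own comparison columns (p-values and fold changes of selected clusters) were not used. Of 101175 clusters, 22773 list 1 symbol, and these gave 19700 genes, the brightest cluster being taken for each of 2224 genes with several, together with the shared cluster of Atg7. No filter on dim genes was applied. For 22245 clusters current symbols came from RefSeq (GRCm38.p6) by gene identifier.

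Differences (cKO minus control) and standard errors came from lmFit and eBayes of limma 3.58.1 in R 4.3.3, two-sided, with Benjamini-Hochberg adjustment over all genes and a threshold of 0.05. The fit was tested on simulated data. The 3 arrays of a group limit the precision. Groups that do not overlap are those in which every array of the one lies beyond every array of the other. Promoters were searched with Python 3.11.15, on both strands. The named genes are all 33 measured genes of the group and, of the 4 lists of other ER genes, those without overlap at an unadjusted p under 0.05. A few are named outside this rule, after their values were seen. They are Ero1b, Atf4, Ddit3, Ppp1r15a, Trib3, and the excitatory neuron markers Neurod6 and Bcl11b. In the closing section they are Adcy3, Alg12, Hspa1a, Hsph1, Nfyb, Nfyc and Peg10. The genes, their roles and all lists were chosen with earlier results of these data known. Alternatives were a second quantile normalization, centring on medians, removal of dim genes, other spreads, averaged clusters, a replicate block, a threshold of 0.1, and arrays left out.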

Additional observations from a re-analysis of the deposited data

How the results depend on the processing

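Of 19700 genes, 0 passed an adjusted p of 0.05 from limma, 0 at a threshold of 0.1, and 1 (Peg10, outside this group) without the lowest 25% of genes or with the clusters of a gene averaged. Whether the replicate numbers pair the samples cannot be decided from the correlations of deviations. These were 0.31, 0.037 and 0.17 for same-numbered arrays and ran from -0.27 to 0.16 for the other pairs, a range that holds 0.037. Both arrays numbered 1 were also set apart on the first principal component. With the number as a replicate block 0 genes passed. The differences cannot change in that fit, since each number has 1 array in each group, and only the errors can. The count of other ER genes below the unadjusted limma threshold of 0.05 was then 4 in place of 3. That count was 5 after a second quantile normalization, 1 without moderation of the spread, 5 with averaged clusters, and 1 to 11 with an array left out. The folding median of -0.28 was -0.20 with averaged clusters and between -0.33 and -0.17 with an array left out. The median of all 33 genes, -0.11, was between -0.15 and -0.052 with an array left out and -0.17 without both arrays numbered 1. The count of genes with a lower mean, 24, stayed between 23 and 26. With averaged clusters Pdia6 differed by -0.06, Dnajb11 by 0.20 and Derl2 by 0.13. Without both arrays numbered 1 Canx differed by -0.26 and Dnajb11 by -0.25. In each setting 0 to 4 of the 33 genes changed sign, among Atf6, Derl2, Derl3, Dnajb9, Dnajb11, Ern1, Herpud1, Mbtps1, Sec61a1 and Sec61b. The cause of these shifts was not tested, apart from averaging, which mixes clusters that disagree. Dim clusters and 3 arrays a group limit what could be seen.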

Other observations

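Outside the listed genes, 28 genes have a complete ERSE within the RefSeq promoter window, and 15 of them were measured. Their differences ran from -0.34 to 0.15 on the log2 scale, and 1 of the 15, the adenylyl cyclase Adcy3, was lower without overlap, which is near the share over all genes (4.24%). Adcy3 was at 7.26, 7.03 and 7.09 in the control arrays and at 6.87, 6.99 and 6.79 in the cKO arrays, a difference of -0.25 (standard error 0.094). Adcy3 and Ero1b were the 2 of the 15 that were lower at an unadjusted p under 0.05 from limma. The ERSE match of Creld2 also lies in the promoter window of its neighbour Alg12, a mannosyltransferase of the ER, and Alg12 differed by 0.04 (standard error 0.17).

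Among cytosolic chaperones, Hsph1, an HSP110 family member, was at 7.52, 7.45 and 7.52 in the control arrays and at 7.06, 7.32 and 7.33 in the cKO arrays, a difference of -0.26 (standard error 0.095). Of 13 cytosolic and mitochondrial chaperones it was the 1 that was lower without overlap, and 1, Hspa1a, was higher without overlap, by 0.13 (standard error 0.075), near the shares over all genes of 4.24% and 4.15%. Of the NF-Y subunits, Nfya was lower, as given above, whereas Nfyb differed by -0.12 (standard error 0.13) and Nfyc by 0.69 (standard error 0.37), both with overlapping groups. The signal of Nfyc ran from 4.79 to 6.33 within the control arrays alone.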
